A study of Mus musculus with 48 samples.

Results

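A set of 10 genes of phospholipid synthesis and remodelling was followed through whole mouse liver: Pemt, Pcyt1a, Pcyt2, Chka, Chkb, Lpcat1, Lpcat2, Lpcat3, Enpp2 and Pla2g6. They were taken by name from 29221 genes in the joined count tables, and all 10 were found. RNA came from 48 mice, all carrying a floxed Pparg gene. Mice received AAV8-TBG-Cre, which expresses Cre recombinase from the hepatocyte-directed TBG promoter, or AAV8-TBG-null as the control, after 16 weeks on the LF or HF diet. A high fat diet (HF) was fed for 34 weeks to males and females, and a low fat diet (LF) for 34 weeks to females only. The third diet, rich in fat, cholesterol and fructose (HFCF), was given for 16 weeks to males and females that had first spent 18 weeks on HF. Each diet and sex held a control and a labelled knockout group, with 6 mice per male group and 4 per female group. The labels describe LF mice as healthy, HF mice as having liver steatosis and HFCF mice as having non-alcoholic steatohepatitis, and give the mice as adults. Cre acts in hepatocytes, so Pparg of the other liver cells is not deleted in this model.

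Phosphatidylcholine, the main phospholipid of liver membranes and of the lipoprotein surface, is made by a pair of routes. In the Kennedy pathway a kinase phosphorylates choline, a cytidylyl transferase activates it and a transferase joins it to diacylglycerol, with a parallel branch for ethanolamine. In the liver, PEMT also converts phosphatidylethanolamine to phosphatidylcholine by methylation. Once made, phospholipids are remodelled: phospholipases A2 remove a fatty acid, and lysophospholipid acyltransferases (LPCATs) put another in its place. Autotaxin, the secreted enzyme encoded by Enpp2, turns lysophosphatidylcholine into the signalling lipid lysophosphatidic acid.

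Libraries held 15338239 to 22072884 reads on genes. Values are CPM, the read count of a gene scaled to a common library size, and a gene is called where edgeR's quasi-likelihood test gives a Benjamini-Hochberg adjusted p under 0.05 over all genes tested. The Pparg total was not lower in any labelled knockout group: group means were 34.3 (control) against 41.2 CPM in HF males (adjusted p = 0.38), and were 32.0 against 55.9 in HFCF males (adjusted p = 0.000805). In females they were 10.5 against 15.6 on LF, 18.6 against 28.8 on HF and 23.7 against 46.0 on HFCF (adjusted p on HFCF 0.0422). A count over the whole gene also takes reads from outside the floxed part, so it does not check the deletion, and the groups are called labelled knockout throughout. Hepatocyte markers (9 genes) had the highest sum of all marker lists in every library, at 44494 to 127134 CPM. The 3 adipocyte markers found of 4 listed summed to at most 0.218 CPM. A few libraries stood apart from their group: replicate 1 of the HFCF control males, replicate 1 of the HF control females, replicate 3 of the HF labelled knockout females and replicate 1 of the HFCF labelled knockout females. The labels do not say whether mice were housed or processed together, so p-values measure the spread between these mice.

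To compare genes with each other, the authors' FPKM values, which divide by gene length, were used. The ethanolamine and methylation enzymes were the most abundant, with median FPKM over the 48 libraries of 138 for Pcyt2 and 129.6 for Pemt. Their ranges, 97.1 to 215 and 84.0 to 201, overlapped. Lpcat3, a main lysophospholipid acyltransferase of the liver, followed at 47.4 (35.1 to 62.1) and did not overlap with the genes below it. Enpp2 had a median of 14.3 FPKM (3.85 to 26.7), Pcyt1a 13.9 (5.99 to 19.2) and Pla2g6 12.6 (9.10 to 21.8). Then came Chka at 4.25 (1.84 to 11.3), Lpcat2 at 2.03 (0.664 to 5.27), Lpcat1 at 1.22 (0.499 to 2.93) and Chkb at 0.414 (0.190 to 1.03). From Enpp2 down, each gene's range over the 48 libraries overlapped with that of the next. Ranges do not compare genes within a library, and in FPKM Pla2g6 was above Chka in each of the 48. Where Chka was highest, in replicate 4 of the HFCF labelled knockout females, Pla2g6 had 12.4 FPKM against 11.3. In CPM, which does not divide by length, the order in that library was reversed, with 67.2 for Pla2g6 and 136 for Chka. The gene length counts all exonic bases, 12024 for Chka and 5434 for Pla2g6, so the order depends on that length. Chkb rested on 9 to 52 reads per library, and 57.6% of its exonic bases also lie in exons of other genes, so its count is uncertain. Most of that overlap is with Gm44502 (50.7%), which lies on the same strand as Chkb. The libraries were not strand specific, and reads from a gene and one that overlaps it on the opposite strand cannot be told apart. Exons of other genes cover 10.2% of the exonic bases of Lpcat3 (with Emg1), 9.09% of Pcyt1a (mostly with Slc51a), 8.47% of Lpcat2, 5.97% of Enpp2 and 1.99% of Chka, and none of Pemt, Pcyt2, Lpcat1 or Pla2g6.

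**Figure D1:**
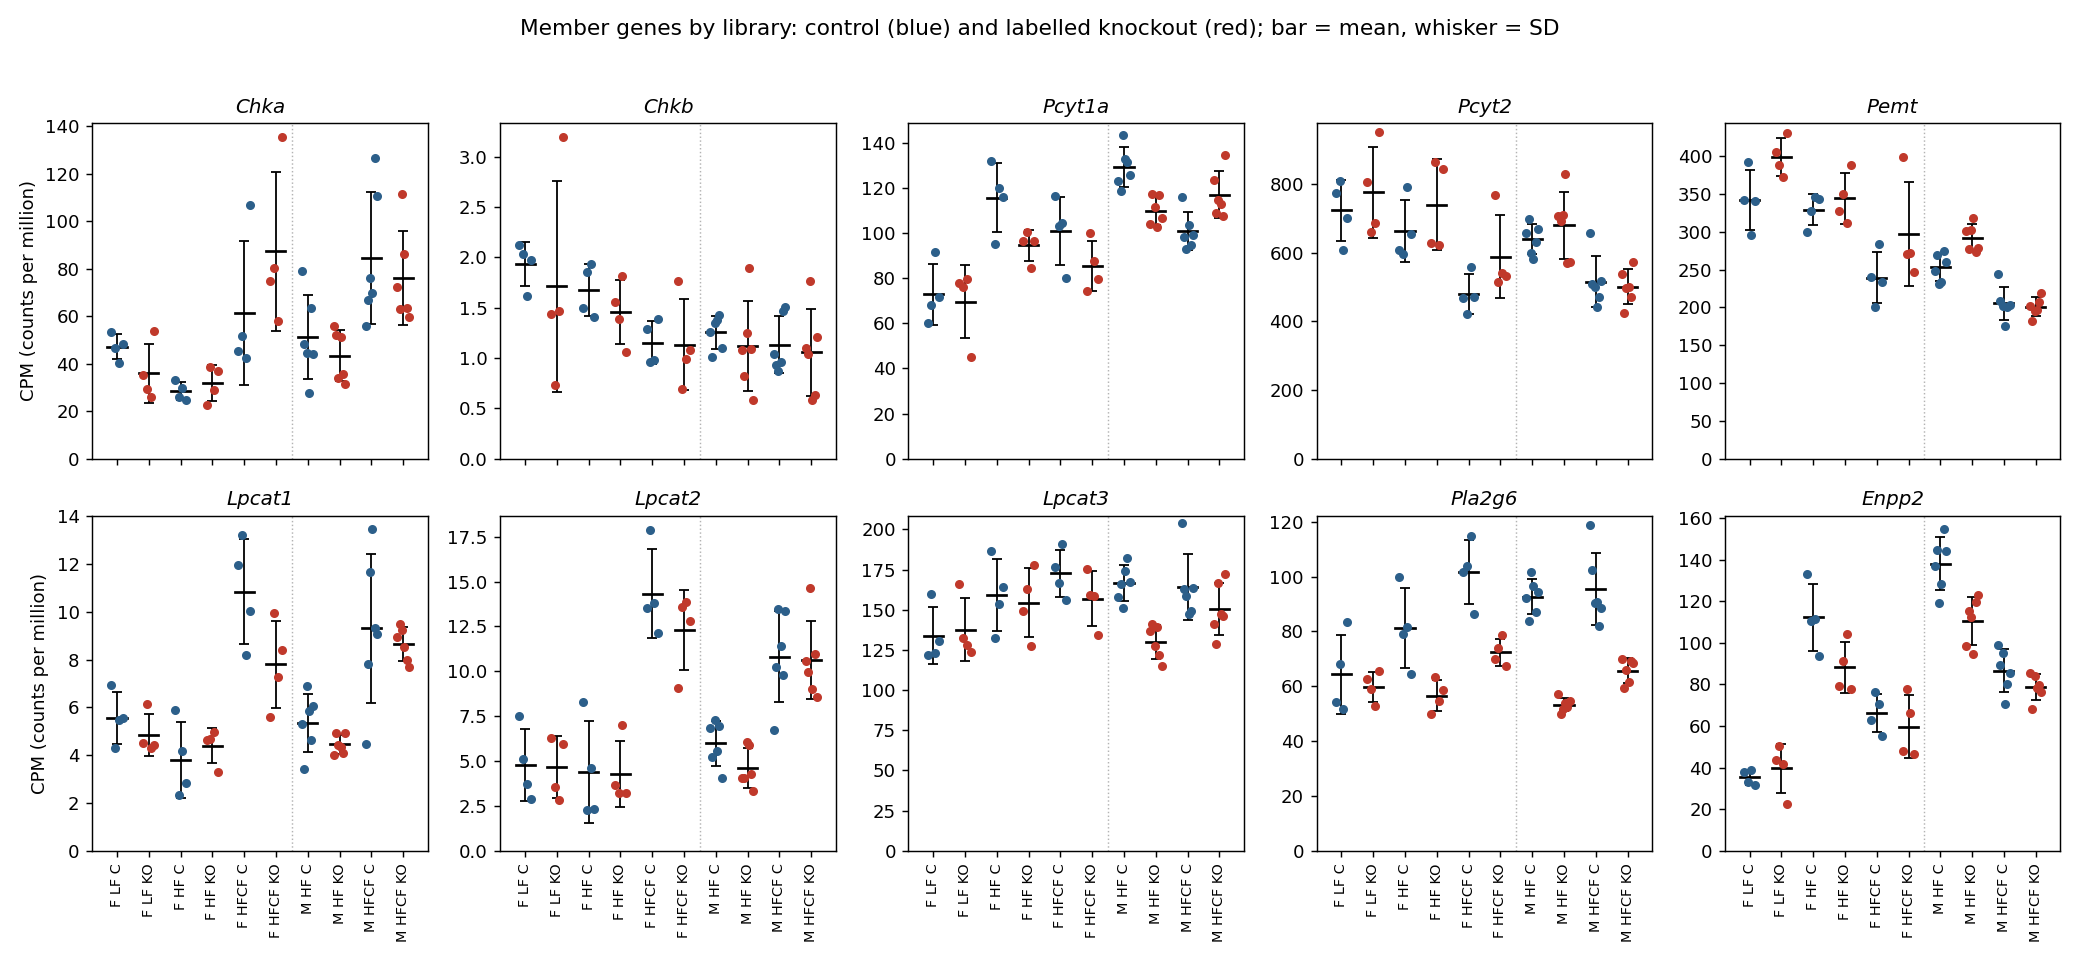
CPM of the 10 members in each library (points) of the 10 groups on the horizontal axis, with the group mean (bar) and SD (whisker), controls in blue and labelled knockouts in red, females left and males right of the dotted line. Pla2g6 is lower in the red than in the blue points on HF and HFCF, Lpcat1 and Lpcat2 are higher on HFCF, and Enpp2 is lowest in females on LF.

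Promoter sequences are shown for a choice of members: Pla2g6 and Lpcat3, both lower in labelled knockout males on HF, and Lpcat1 and Lpcat2, both higher on HFCF. Pcyt1a, also lower in labelled knockout males on HF, and Chka, also higher on HFCF, are not shown. Of the 10 members, 8 were found in the RefSeq promoter table (GRCm38.p6); Enpp2 and Pcyt2 were not matched. Each stretch ends before the first base of the gene as the deposited tables place it, is written 5′ to 3′ on the gene's strand, and has each GC box (GGGCGG, searched on both strands, overlaps counted) in capitals. They lie at chr15:79328391-79328621 (minus strand), chr6:124662854-124663026 (plus), chr13:73466981-73467196 (plus) and chr8:92855083-92855332 (plus).
Pla2g6: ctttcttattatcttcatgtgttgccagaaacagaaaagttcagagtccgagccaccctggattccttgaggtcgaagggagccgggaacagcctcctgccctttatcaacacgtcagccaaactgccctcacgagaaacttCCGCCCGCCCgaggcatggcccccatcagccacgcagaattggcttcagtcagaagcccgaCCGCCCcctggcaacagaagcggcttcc
Lpcat3: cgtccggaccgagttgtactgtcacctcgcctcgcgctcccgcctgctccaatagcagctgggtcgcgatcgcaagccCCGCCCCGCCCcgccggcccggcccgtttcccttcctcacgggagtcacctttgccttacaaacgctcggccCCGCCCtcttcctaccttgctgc
Lpcat1: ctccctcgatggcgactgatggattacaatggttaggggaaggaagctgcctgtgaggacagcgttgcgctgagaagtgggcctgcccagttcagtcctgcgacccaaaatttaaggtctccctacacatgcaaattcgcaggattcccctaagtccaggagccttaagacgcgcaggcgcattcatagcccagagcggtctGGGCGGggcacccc
Lpcat2: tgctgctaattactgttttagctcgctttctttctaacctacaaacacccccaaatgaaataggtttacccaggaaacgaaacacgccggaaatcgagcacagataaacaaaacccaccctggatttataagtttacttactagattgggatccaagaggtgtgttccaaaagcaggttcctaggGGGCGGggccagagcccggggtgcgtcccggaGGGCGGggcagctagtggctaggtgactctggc
The stretches hold 3 GC boxes for Pla2g6, 3 for Lpcat3, 1 for Lpcat1 and 2 for Lpcat2. They are parts of the promoter windows, and the whole windows hold 3, 5, 2 and 2. Of the members not shown, the windows of Pemt hold 0, those of Pcyt1a 0 to 2, that of Chkb 1 and that of Chka 2. Of all 32851 promoter windows, 32.7% hold at least 1. The direct repeat DR1, a pair of AGGTCA copies 1 base apart to which PPAR and RXR pairs bind, searched on both strands, was not found in the windows of the 8 members, and 0.0335% of all windows hold it. A single AGGTCA, in 14.0% of windows, was not found in them either. A match here is a description of letters in a short window.

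In the labelled knockout comparisons, Pla2g6 was the member called in both male comparisons. It fell in HF males and in HFCF males. In females on HF and on HFCF the test was not passed, although its groups did not overlap. The share of all genes without overlap in a single comparison was not tabulated, so lack of overlap in 1 comparison cannot be weighed. In HF males 5 of the 10 members were called, with Pemt higher and Pcyt1a, Lpcat3, Enpp2 and Pla2g6 lower, against 18.5% of 14041 genes called. The median log2 change of the 10 was -0.26, beside 0.00 over all genes. In HFCF males 1 of 10 was called (background 2.21%), with a median of -0.10 beside -0.01. In females edgeR called 0 of 10 on LF (background 0.0%), 0 on HF (background 0.0%) and 0 on HFCF (background 0.0534%). At an unadjusted p under 0.05 those counts were 0, 3 and 2, where 2.49%, 8.03% and 8.95% of all genes passed. The DESeq2 Wald test called 0, 0 and 1 (Pla2g6).

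**Figure D2:**
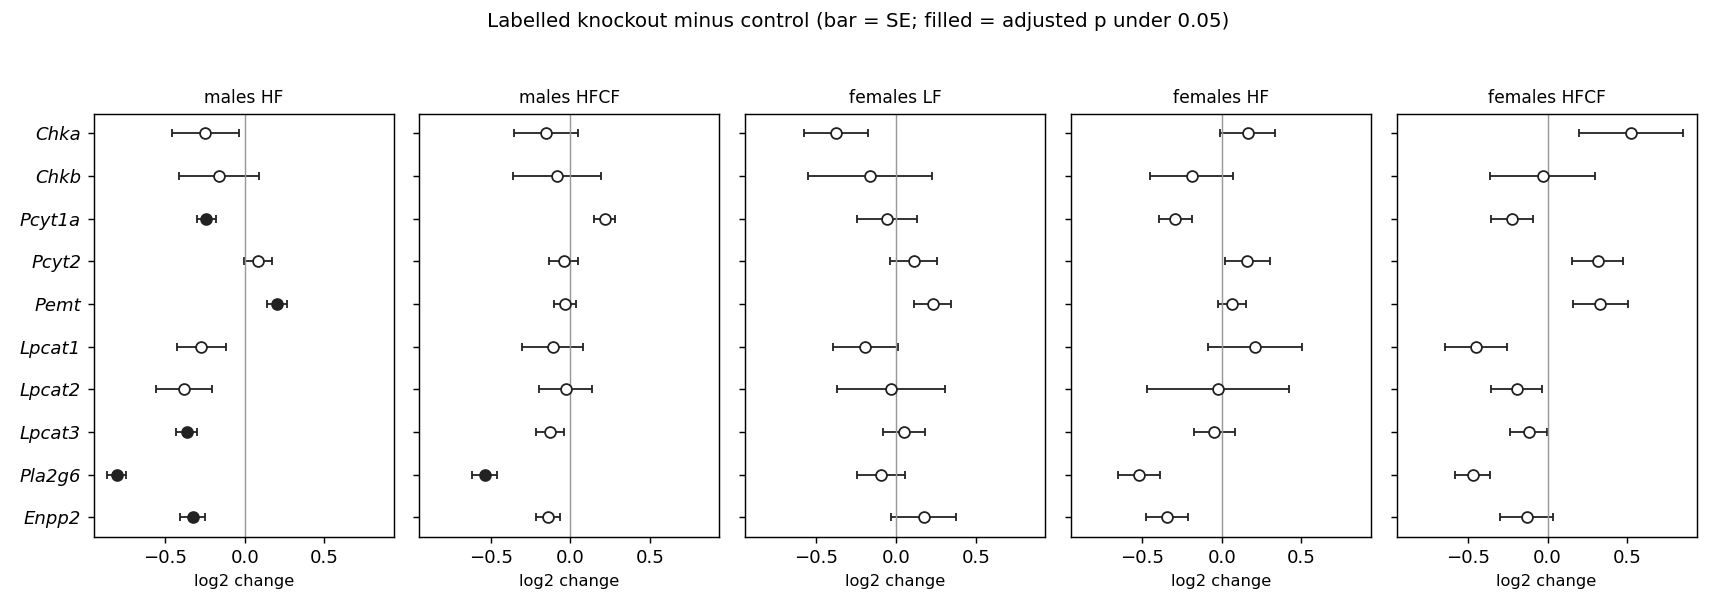
Log2 change of each member (vertical axis) between labelled knockout and control livers, in 5 panels by sex and diet, with SE bars and filled points where the adjusted p is under 0.05. Pla2g6 lies left of 0 in all panels, at -0.80 in HF males and -0.09 in LF females, and filled points are seen only in males.

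Pla2g6 encodes the group VI calcium-independent phospholipase A2, which releases fatty acids from phospholipids, and maps to chr15:79286228-79328390 (GRCm38, minus strand). In HF males controls had 83.9 to 102 CPM (median 93.4) and labelled knockouts 49.99 to 57.1 CPM (median 53.2). Every labelled knockout lay below every control, and the level fell 1.75-fold (log2 change -0.80, SE 0.058, adjusted p = 3.15e-07, edgeR). In HFCF males controls had 82.0 to 119 CPM (median 90.5) and labelled knockouts 59.2 to 70.0 CPM (median 67.2), a fall again without overlap (log2 change -0.54, SE 0.079, adjusted p = 0.0019). Both calls held with each of the 12 mice left out in turn. In females on HF the controls had 99.8, 79.1, 81.6 and 64.4 CPM and the labelled knockouts 49.9, 63.2, 54.6 and 58.5 CPM, a gap without overlap that did not pass (log2 change -0.52, SE 0.13, adjusted p = 0.522). On HFCF they had 102, 104, 115 and 86.3 CPM against 69.8, 73.8, 78.7 and 67.2 CPM, also without overlap (log2 change -0.47, SE 0.11, adjusted p = 0.32). When all 10 groups shared 1 fit, both female comparisons passed (adjusted p = 0.0454 and 0.0419), and the Wald test gave 0.0155 on HFCF. On LF the values overlapped, 54.3, 68.0, 51.8 and 83.3 CPM in controls and 62.5, 58.8, 52.7 and 65.4 CPM in labelled knockouts (log2 change -0.09, SE 0.15, adjusted p = 1).

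The 4 comparisons on HF or HFCF share no library. Of 13600 genes tested in all of them, 32 (0.235%) were lower without overlap in each, and Pla2g6 was 1 of these; the count was made after the values of Pla2g6 had been seen. The knockout effect on Pla2g6 was 0.27 log2 units more negative in males than in females on HF (adjusted p = 0.463) and 0.25 less negative on HFCF than on HF in males (adjusted p = 0.183). Neither difference passed, except that the second did without replicate 1 of the HFCF control males (adjusted p = 0.0485). Among the interactions, 0 of 10 members were called for sex on HF (background 0.0%) and for sex on HFCF (background 0.0%), where 2 and 2 had an unadjusted p under 0.05 and the Wald test called 0 and 0.

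The Kennedy pathway begins with the choline kinases Chka and Chkb. Neither differed by the test between labelled knockouts and controls in any of the 5 comparisons, with Chka log2 changes from -0.38 on LF to +0.53 on HFCF in females. Pcyt1a (CTP:phosphocholine cytidylyl transferase, the rate-controlling step, at chr16:32430921-32475070) fell in labelled knockout HF males. Their values were 103 to 117 CPM (median 109), all below the 119 to 144 CPM (median 129) of controls (log2 change -0.24, SE 0.061, adjusted p = 0.0117). On HFCF the direction was opposite, 93.1 to 116 CPM (median 98.7) in controls and 108 to 135 CPM (median 114) in labelled knockouts, with overlap and no call (log2 change +0.21, SE 0.067, adjusted p = 0.12). Without replicate 1 of the HFCF control males, the highest control at 116 CPM, that rise passed (adjusted p = 0.0234). The difference between the 2 diets was itself called: the knockout effect was 0.44 log2 units higher on HFCF (SE 0.088, adjusted p = 0.0106), and Pcyt1a was the 1 of 10 members called (background 1.56%). The call held in all 24 fits with a mouse left out and was lost when all 10 groups shared 1 fit (adjusted p = 0.24). In females the Pcyt1a change was -0.29 on HF and -0.22 on HFCF, neither called.

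Pcyt2, the cytidylyl transferase of the ethanolamine branch (chr11:120610087-120617936), was not called in any labelled knockout comparison, with log2 changes from -0.04 to +0.32. Pemt (chr11:59970614-60046489) rose slightly in labelled knockout HF males, where controls had 231 to 275 CPM (median 254) and labelled knockouts 273 to 318 CPM (median 290.0) (log2 change +0.20, SE 0.062, adjusted p = 0.0331). The groups overlapped, and the call held in 5 of 12 fits with a mouse left out and in 2 of 5 alternative fits, being lost among others with no filter on low counts (adjusted p = 0.0581). In LF females Pemt was 343 ± 39.7 CPM (SD, n = 4) in controls and 399 ± 24.9 CPM (SD, n = 4) in labelled knockouts, which did not pass (log2 change +0.23, SE 0.12, adjusted p = 1). In the HF males hepatocyte markers moved with Pemt: 7 of 9 were called higher and 0 lower, and their sum was 70153 to 93975 CPM in controls and 101312 to 114261 in labelled knockouts. Their part in the Pemt change was not tested. In whole liver, fewer cells of a type and less RNA per cell cannot be told apart.

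Among the acyltransferases, Lpcat3, which inserts polyunsaturated fatty acids into lysophosphatidylcholine (chr6:124663027-124704418), fell in labelled knockout HF males. Its values were 115 to 141 CPM (median 132), all below the 151 to 182 CPM (median 167) of controls (log2 change -0.36, SE 0.066, adjusted p = 0.00127), and the call held in all 12 fits with a mouse left out and in all 5 alternative fits. In HFCF males the values overlapped, 164 ± 20.7 CPM (SD, n = 6) against 150.3 ± 16.2 CPM (SD, n = 6) (log2 change -0.13, SE 0.086, adjusted p = 0.554). Females on HF had 159 ± 22.5 CPM (SD, n = 4) and 154 ± 21.6 CPM (SD, n = 4) (log2 change -0.05, SE 0.13, adjusted p = 0.947). The sex difference on HF was -0.31 and did not pass (adjusted p = 0.457). Lpcat1 and Lpcat2 were not called in any of the 5, the nearest being Lpcat2 in HF males, with 5.98 ± 1.26 CPM (SD, n = 6) in controls and 4.60 ± 1.10 CPM (SD, n = 6) in labelled knockouts (log2 change -0.38, SE 0.17, adjusted p = 0.144).

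Enpp2 (chr15:54838901-54952892, minus strand) fell in labelled knockout HF males, with 119 to 155 CPM (median 141) in controls and 94.5 to 123 CPM (median 114) in labelled knockouts and an overlap between the groups (log2 change -0.33, SE 0.078, adjusted p = 0.009). In HF females it was 133, 111, 111 and 93.7 CPM in controls and 79.3, 91.5, 104 and 77.8 CPM in labelled knockouts, a similar size that did not pass (log2 change -0.34, SE 0.13, adjusted p = 0.602). On HFCF it was 86.6 ± 10.3 CPM (SD, n = 6) against 78.7 ± 6.28 CPM (SD, n = 6) in males and 66.3 ± 9.12 CPM (SD, n = 4) against 59.7 ± 15.0 CPM (SD, n = 4) in females, neither called. With all 10 groups in 1 fit, the HF male calls of Enpp2 (adjusted p = 0.0934), Pcyt1a (0.143) and Pemt (0.13) were lost. Stellate cell markers moved with the HF male comparison as well, 6 of 9 called lower, with sums of 535 to 784 CPM in controls and 376 to 502 in labelled knockouts, and their part in the falls of Enpp2, Lpcat3, Pcyt1a and Pla2g6 was not tested.

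Between HF and LF, which was fed to females only, Enpp2 showed the largest change of the members. Control females had 38.0, 33.0, 38.6 and 31.7 CPM on LF and 133, 111, 111 and 93.7 CPM on HF, a 3.21-fold rise without overlap (log2 change +1.68, SE 0.12, adjusted p = 0.00117) that held with each of the 8 mice left out. In labelled knockout females the values were 43.6, 50.3, 41.8 and 22.6 CPM on LF and 79.3, 91.5, 104 and 77.8 CPM on HF, also without overlap, and the rise just missed the threshold (log2 change +1.17, SE 0.21, adjusted p = 0.0637). In that comparison edgeR called 0 of 10 members (background 0.155%), 2 had an unadjusted p under 0.05, and the DESeq2 Wald test called 1 (Enpp2). Whether the rise differed between controls and labelled knockouts was not tested. In the control females 2 of 10 were called, Enpp2 higher and Chka lower (background 0.696%). Chka was 53.4, 46.4, 40.4 and 48.4 CPM on LF and 33.3, 25.8, 29.7 and 24.7 CPM on HF (log2 change -0.72, SE 0.12, adjusted p = 0.0383), a call kept in 2 of 8 fits with a mouse left out. Pcyt1a was higher on HF without overlap, 60.0, 68.0, 91.8 and 71.7 CPM against 132, 95.1, 120.0 and 116 CPM, and did not pass (log2 change +0.68, SE 0.14, adjusted p = 0.0651) in edgeR, while the DESeq2 Wald test gave 0.00169. It also passed in edgeR without replicate 3 of the LF controls (adjusted p = 0.0436). The median change of the 10 members was -0.08 in controls, beside 0.00 over all genes.

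HFCF against HF moved more members. Chka, Lpcat1 and Lpcat2 rose in all 4 comparisons (both sexes, control and labelled knockout), and Enpp2 was lower without overlap between groups in all 4, by a narrow margin in labelled knockout females. In control females 6 of 10 were called, 3 higher and 3 lower, where 30.8% of all genes were called. In labelled knockout females 4 were called, all higher (background 14.5%). That count was 6 without replicate 1 of the HFCF group, and 2 without replicate 1 or 4 of the HF group or replicate 3 or 4 of the HFCF group. In control males 7 were called, 3 higher and 4 lower (background 22.3%), and in labelled knockout males 8, 5 higher and 3 lower (background 41.7%). The median change of the members lay between -0.06 and 0.16 in the 4 comparisons. The 4 share no library. Of 13968 genes tested in all, 4.14% were called higher in each, and 0.379% lay lower without overlap in each. The 0 of 10 members called for a difference of this diet effect between control males and females (background 0.00646%) had 1 unadjusted p under 0.05, and the Wald test called 0.

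**Figure D3:**
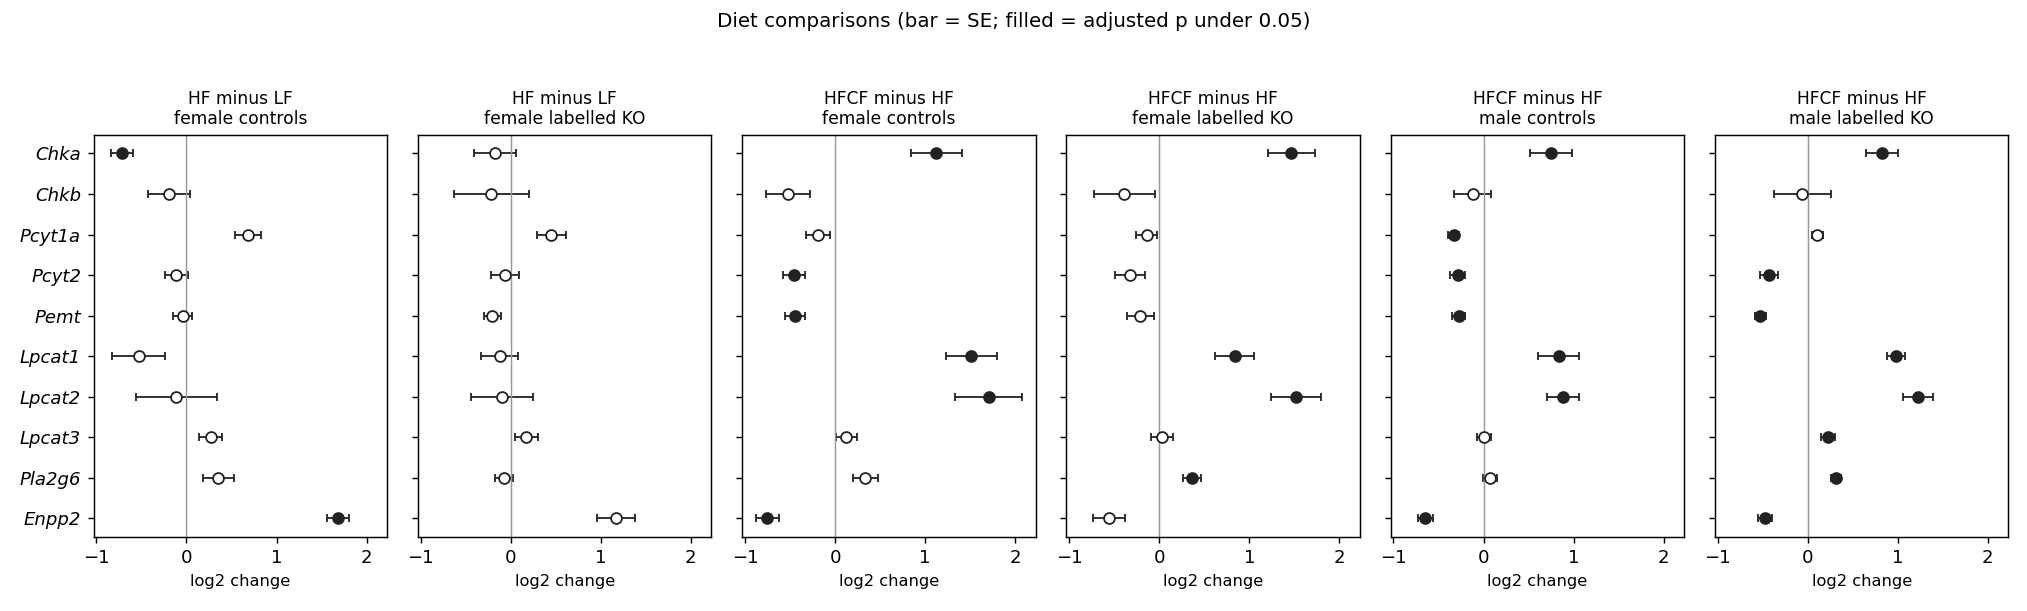
Log2 change of each member (vertical axis) in 6 diet comparisons, with SE bars and filled points where the adjusted p is under 0.05. Enpp2 lies right of 0 for HF minus LF and left of 0 for HFCF minus HF, while Chka, Lpcat1 and Lpcat2 lie right of 0 and filled in the 4 HFCF panels.

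Chka (chr19:3851773-3894369) was 33.3, 25.8, 29.7 and 24.7 CPM in control females on HF and 45.5, 51.5, 42.3 and 107 CPM on HFCF. Replicate 5 of the HFCF controls was far above the other 3, and without it the call held with a smaller log2 change of 0.715 (adjusted p = 0.0182). Without replicate 2 of the HF controls the call was lost (log2 change 1.076, edgeR adjusted p = 0.0507). In labelled knockout females Chka was 22.4, 38.7, 29.1 and 37.0 CPM on HF and 74.9, 80.5, 58.2 and 136 CPM on HFCF, without overlap. All 8 HFCF females of the 2 genotypes were above the HF females of their own genotype. Control males had 27.8 to 79.3 CPM (median 46.3) on HF and 56.0 to 127 CPM (median 72.9) on HFCF. Labelled knockout males had 31.3 to 55.9 CPM (median 43.4) on HF and 59.6 to 111 CPM (median 67.9) on HFCF, without overlap. The edgeR log2 changes of Chka were +1.12 (adjusted p = 0.0175) in control females, +1.47 (0.0072) in labelled knockout females, +0.75 (0.0326) in control males and +0.83 (0.00157) in labelled knockout males. In control males the groups overlapped and the call held in 6 of 12 fits with a mouse left out. Chkb had 1.05 to 1.93 CPM as group means and was called in none of these 4.

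Pemt and Pcyt2 moved down on HFCF, each in 3 of the 4 comparisons. Pemt was 300.1, 328, 346 and 343 CPM in control females on HF and 240.0, 200.2, 283 and 234 CPM on HFCF, without overlap. Labelled knockout males had 273 to 318 CPM (median 290.0) on HF and 182 to 219.6 CPM (median 199) on HFCF, also without overlap, and control males 231 to 275 CPM (median 254) and 175 to 243 CPM (median 202), with overlap. The Pemt changes were -0.45 (adjusted p = 0.0169) in control females, -0.21 (0.388) in labelled knockout females, -0.27 (0.0142) in control males and -0.53 (1.22e-05) in labelled knockout males. In the labelled knockout females replicate 1 on HFCF had 399 CPM against 247 to 272 in the other 3. Without that mouse Pemt was called lower there (log2 change -0.36, adjusted p = 0.0167), and so was Pcyt2 (-0.46, adjusted p = 0.0281). Pcyt2 was 607, 597, 791 and 656 CPM in control females on HF and 467, 422, 559 and 472 CPM on HFCF. Pcyt2 makes the activated ethanolamine from which PEMT's substrate is built. Control males had 583 to 697 CPM (median 644) of Pcyt2 on HF and 441 to 656 CPM (median 503) on HFCF, and labelled knockout males 568 to 829 CPM (median 700.1) and 426 to 572 CPM (median 498), with overlap in both. The Pcyt2 changes were -0.46 (adjusted p = 0.0239) in control females, -0.33 (0.223) in labelled knockout females, -0.29 (0.0248) in control males and -0.43 (0.00225) in labelled knockout males, and with a mouse left out the control female call held in 3 of 8 fits and the control male call in 8 of 12. With all 10 groups in 1 fit the control male call was lost (adjusted p = 0.0531).

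Pcyt1a fell on HFCF in control males, which had 119 to 144 CPM (median 129) on HF and 93.1 to 116 CPM (median 98.7) on HFCF, without overlap (log2 change -0.33, SE 0.062, adjusted p = 0.00264). In labelled knockout males it was 110.0 ± 6.33 CPM (SD, n = 6) on HF and 117 ± 10.3 CPM (SD, n = 6) on HFCF, not called (log2 change +0.11, SE 0.064, adjusted p = 0.201), nor was it in females. Hepatocyte markers were called lower on HFCF in the 3 comparisons in which Pemt was. In control males 5 of 9 were called lower and 0 higher, with sums of 70153 to 93975 CPM on HF and 44494 to 69809 on HFCF, and in control females 5 of 9, with sums of 96509.7 to 113345 and 59774 to 73712. In labelled knockout males it was 7 of 9, with 101312 to 114261 and 61445 to 74225. Labelled knockout females had sums of 105276 to 127134 on HF and 67273 to 117333 on HFCF. Replicate 1 of the HFCF labelled knockout females, the high Pemt library, had a hepatocyte sum of 117333 CPM. The part of the hepatocyte signal in the changes of Pemt, Pcyt2 and Pcyt1a was not tested.

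The acyltransferases split by member. Lpcat1 (chr13:73467197-73516422), which acts on lysophosphatidylcholine and was first known from lung surfactant, was 5.88, 2.35, 4.17 and 2.82 CPM in control females on HF and 11.9, 13.2, 8.19 and 10.0 CPM on HFCF. In labelled knockout males it was 4.01 to 4.93 CPM (median 4.39) on HF and 7.69 to 9.49 CPM (median 8.73) on HFCF, without overlap in either case. Control males overlapped, 3.40 to 6.87 CPM (median 5.58) against 4.47 to 13.5 CPM (median 9.19), and replicate 1 on HFCF was the lowest at 4.47. The Lpcat1 changes were +1.51 (adjusted p = 0.00742) in control females, +0.84 (0.0308) in labelled knockout females, +0.83 (0.0172) in control males and +0.97 (4.94e-06) in labelled knockout males. The labelled knockout female call held in 2 of 8 fits with a mouse left out. Lpcat2 (chr8:92855339-92919279), an enzyme of inflammatory cells that also makes platelet-activating factor, was 8.31, 2.29, 4.61 and 2.33 CPM in control females on HF and 13.5, 17.9, 13.8 and 12.1 CPM on HFCF. In labelled knockout males it was 3.31 to 6.04 CPM (median 4.19) on HF and 8.54 to 14.6 CPM (median 10.2) on HFCF. The Lpcat2 changes were +1.71 (adjusted p = 0.0114) in control females, +1.52 (0.00771) in labelled knockout females, +0.89 (0.00352) in control males and +1.22 (4.5e-05) in labelled knockout males. Control females on HF spread widely, as replicate 1 had 8.31 CPM and the other 3 had 2.29 to 4.61. Without that mouse the Lpcat2 diet effect differed between the sexes (log2 difference -1.33, males minus females, adjusted p = 0.0155), and with it the difference did not pass (log2 change -0.82, SE 0.39, adjusted p = 0.298).

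Macrophage markers rose with Lpcat1 and Lpcat2. Of the 13 markers, 11 were called higher in control females, control males and labelled knockout males, and 5 in labelled knockout females; 1 (Marco) was lower in labelled knockout males. Their summed level was 443 to 752 CPM on HF and 1402 to 1761 on HFCF in control females, and 427 to 727 and 688 to 1468 in control males. It was 510.2 to 1279 and 1168 to 1534 in labelled knockout females, and 532 to 764 and 995 to 1600.5 in labelled knockout males. Replicate 1 of the HFCF control males, lowest of its group in Lpcat1 and Lpcat2 (6.73 CPM), was also lowest in macrophage markers, at 688 CPM. Replicate 3 of the HF labelled knockout females had the highest Lpcat2 of its group (7.01 CPM) and the highest macrophage sum (1279 CPM). That library also had a neutrophil marker sum of 77.2 CPM, where the other 3 had 1.77 to 2.04, and the part of these cells in its Lpcat2 level was not tested. In some groups Lpcat2 and the macrophage sum peaked in different libraries. In HF control females replicate 1 had the highest Lpcat2 (8.31 CPM), but replicate 3 the highest macrophage sum (752 CPM against 656). In HFCF labelled knockout males replicate 3 had the highest Lpcat2 (14.6 CPM) and replicate 1 the highest macrophage sum (1600.5 CPM). None of the 13 markers was at 0 in a whole group. All 5 cholangiocyte markers also rose in each of the 4 comparisons, and of 9 stellate cell markers 3 rose in control females, 7 in control males and 8 in each labelled knockout group. The summed stellate level was 535 to 784 CPM on HF and 643 to 1229.5 on HFCF in control males, and 248 to 912 and 911 to 1419 in control females. The part of other cell types in the rise of Lpcat1, Lpcat2 and Chka was not tested. Lpcat3 was called higher in labelled knockout males, which had 130.2 ± 10.6 CPM (SD, n = 6) on HF and 150.3 ± 16.2 CPM (SD, n = 6) on HFCF (log2 change +0.22, SE 0.078, adjusted p = 0.0316). The groups overlapped, the call held in 8 of 12 fits with a mouse left out, and it was lost with no filter (adjusted p = 0.0526) and with all 10 groups in 1 fit (0.0747). It was not called in the other 3, with log2 changes of +0.01 to +0.12.

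**Figure D4:**
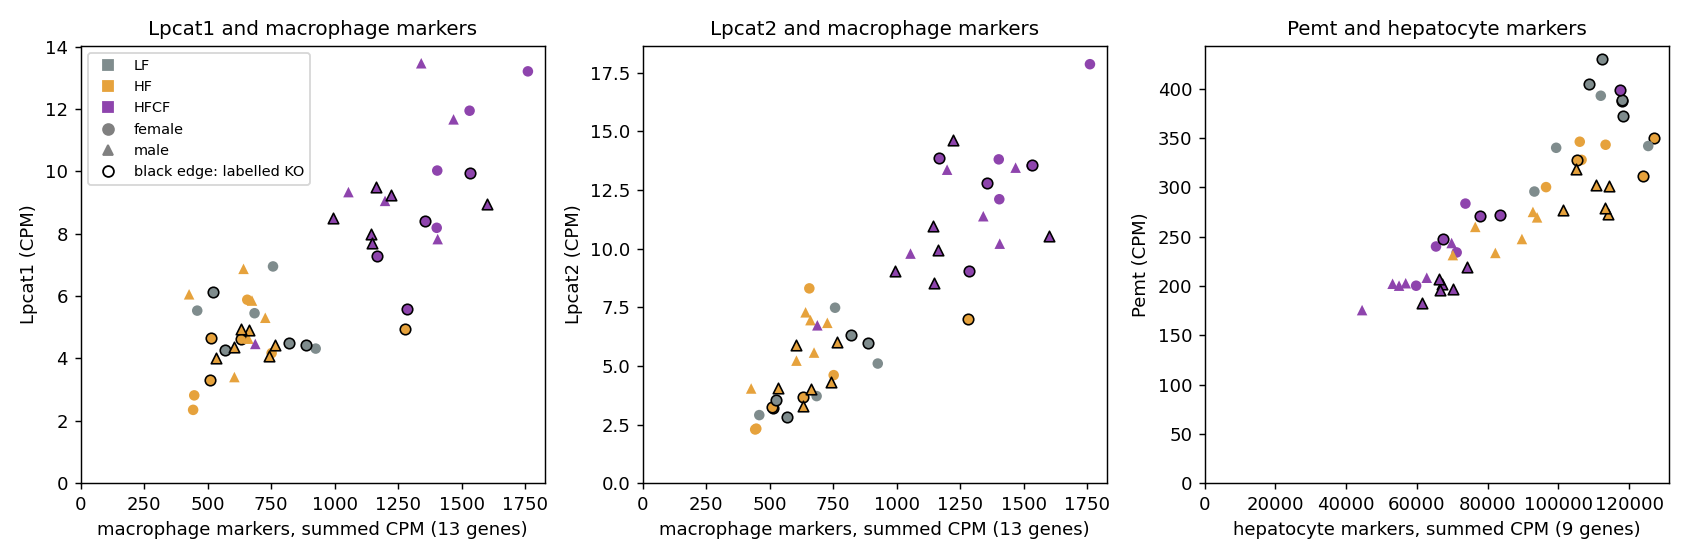
Each point is 1 of the 48 libraries, with the summed CPM of a marker list on the horizontal axis and the CPM of Lpcat1, Lpcat2 or Pemt on the vertical axis, coloured by diet, with circles for females and triangles for males. Most HFCF libraries sit at higher macrophage sums and higher Lpcat1 and Lpcat2, and at lower hepatocyte sums and lower Pemt; among the exceptions are replicate 1 of the HFCF control males and of the HFCF labelled knockout females.

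Pla2g6 was called higher on HFCF in both labelled knockout groups and in neither control group. Labelled knockout males had 49.99 to 57.1 CPM (median 53.2) on HF and 59.2 to 70.0 CPM (median 67.2) on HFCF, a rise without overlap (log2 change +0.32, SE 0.056, adjusted p = 0.000391). Labelled knockout females had 49.9, 63.2, 54.6 and 58.5 CPM on HF and 69.8, 73.8, 78.7 and 67.2 CPM on HFCF (log2 change +0.36, SE 0.10, adjusted p = 0.0393), a call kept in 2 of 8 fits with a mouse left out and lost without replicate 3 of the HF group (adjusted p = 0.0669). In control males the change was +0.07 (adjusted p = 0.577) and in control females +0.33 (adjusted p = 0.0902), the latter called without replicate 1 of the HF controls (adjusted p = 0.0115). For males, the interaction given above is the test of that difference and did not pass, and in females that difference was not tested.

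Enpp2, higher on HF than on LF in females, was lower again on HFCF. In control females it was 133, 111, 111 and 93.7 CPM on HF and 63.1, 76.3, 70.5 and 55.2 CPM on HFCF, and in control males 119 to 155 CPM (median 141) and 70.4 to 98.8 CPM (median 87.5), without overlap in both. Labelled knockout males had 94.5 to 123 CPM (median 114) and 68.0 to 85.5 CPM (median 79.0), and labelled knockout females 79.3, 91.5, 104 and 77.8 CPM and 48.2, 77.8, 66.3 and 46.5 CPM. The Enpp2 changes were -0.75 (adjusted p = 0.00617) in control females, -0.56 (0.0643) in labelled knockout females, -0.65 (0.00038) in control males and -0.48 (0.000168) in labelled knockout males, so 3 of 4 were called. In labelled knockout females the groups nearly touched, at 77.822 CPM for the lowest on HF and 77.757 for the highest on HFCF, and in the authors' FPKM they overlapped, at 13.3 and 13.5. Control females on HFCF were still above those on LF (38.0, 33.0, 38.6 and 31.7 CPM; log2 change +0.90, SE 0.11, adjusted p = 0.000669). Of 13968 genes, 53 shared the lower, non-overlapping pattern in all 4, a count made after the Enpp2 values were seen.

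Against LF, the HFCF control females had 9 of 10 members called, 6 higher (Pcyt1a, Lpcat1, Lpcat2, Lpcat3, Enpp2 and Pla2g6) and 3 lower (Pemt, Pcyt2 and Chkb), where 35.2% of genes were called. The median change of the members was 0.42, beside -0.03 over all genes. Lpcat2 rose most, with 4.80 ± 2.004 CPM (SD, n = 4) on LF and 14.3 ± 2.47 CPM (SD, n = 4) on HFCF (log2 change +1.57, SE 0.26, adjusted p = 0.00207). Pcyt2 fell from 723 ± 88.2 CPM (SD, n = 4) to 479.8 ± 57.3 CPM (SD, n = 4) (log2 change -0.60, SE 0.13, adjusted p = 0.00662), and Pemt by 0.52 on the log2 scale (adjusted p = 0.0118). Chkb, at the low counts given above, fell by 0.75 (adjusted p = 0.0341, called in 2 of 8 fits with a mouse left out), a call also lost with no filter (adjusted p = 0.0841) and with all 10 groups in 1 fit (0.0615). The groups of Pcyt1a and Lpcat3 overlapped, and with a mouse left out their calls held in 3 and 4 of 8 fits. Pla2g6 rose as well, with 54.3, 68.0, 51.8 and 83.3 CPM on LF and 102, 104, 115 and 86.3 CPM on HFCF (log2 change +0.65, SE 0.15, adjusted p = 0.00768). In labelled knockout females 2 of 10 were called, Chka (+1.32, adjusted p = 0.0122) and Lpcat2 (+1.45, adjusted p = 0.00656), where 12% of genes were called, and 5 were called without replicate 1 of the HFCF group, with Pemt (adjusted p = 0.0051), Pcyt2 (0.0264) and Lpcat1 (0.011) added. Of the macrophage markers 11 of 13 were called higher in both of these comparisons, and their part in the rise of Lpcat2 was not tested. In the control females 7 of 9 hepatocyte markers were called lower, with sums of 93215 to 125407 CPM on LF and 59774 to 73712 on HFCF, and 7 of 9 stellate cell and 5 of 5 cholangiocyte markers were called higher. Their part in the falls of Pemt and Pcyt2 was not tested. These comparisons share their HFCF or LF mice with those above and are not independent of them.

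Other genes of the pathway were read from 7 lists with 99 genes found. In labelled knockout HF males 12 rose and 19 fell of 91 tested (background 8.57% higher, 9.88% lower), and in HFCF males 2 rose and 3 fell of 94 (background 0.933% and 1.27%). In females edgeR called 0 of 94 on LF, 0 of 93 on HF and 0 of 96 on HFCF, where 3, 11 and 12 had an unadjusted p under 0.05 and the Wald test was not tabulated for the lists. In HF males the methyl donor and choline breakdown list had 6 of 11 called higher and 2 lower. Those higher include Mat1a, which makes the methyl donor that PEMT uses, and Gnmt, which uses the same donor. The phospholipid transfer and export list had 3 of 13 higher and 6 lower. Its Pltp, the plasma phospholipid transfer protein, fell from 92.3 ± 24.5 to 47.6 ± 7.21 CPM (SD, n = 6 each, log2 change -0.96, SE 0.15, adjusted p = 0.000514), and the scramblase Plscr1 fell by 0.83 on the log2 scale (adjusted p = 0.000131). In the Kennedy list 1 of 13 was higher and 4 lower, among them Chpt1, which makes phosphatidylcholine from the product of PCYT1A: it fell by 0.42 in HF males (adjusted p = 0.000514) and by 0.46 in HFCF males (adjusted p = 0.00961).

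In addition, 4 genes of these lists, named here after their values were seen, had non-overlapping groups in all 4 labelled knockout comparisons on HF or HFCF. Abcb4, the canalicular phosphatidylcholine exporter, Chpt1 and the glycerophosphodiesterase Gde1 were lower, and Pla1a, a secreted phospholipase A1 specific for phosphatidylserine, was higher; 3 of 13600 genes (0.0221%) shared the latter pattern. The lower pattern held for 3 of 90 list genes, beside the 0.235% of all genes given above. Pla1a was called higher, 30.4 ± 1.88 against 43.6 ± 3.58 CPM in HF males (SD, n = 6 each, log2 change +0.51, SE 0.066, adjusted p = 8.77e-05) and 22.5 ± 2.28 against 29.9 ± 2.93 in HFCF males (adjusted p = 0.0158). In females it was 49.9 ± 8.31 against 63.3 ± 4.82 on HF and 30.0 ± 3.04 against 42.1 ± 11.3 on HFCF (SD, n = 4 each), neither called (adjusted p = 0.584 and 0.544), and on LF the log2 change was +0.01. Gde1 fell by 0.20 in HF males (adjusted p = 0.0133) and by 0.41 in HFCF males (0.00634), and in females its changes of -0.51 on HF and -0.40 on HFCF were not called (adjusted p = 0.51 and 0.312). Abcb4 fell by 0.51 in HF males (adjusted p = 6.98e-05) and not called in HFCF males (-0.27, adjusted p = 0.0549) or in females (-0.39 on HF and -0.39 on HFCF, adjusted p = 0.584 and 0.495). Chpt1 in females was not called either (-0.54 and -0.41, adjusted p = 0.368 and 0.498).

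On HFCF against HF, 23 list genes rose and 18 fell of 96 in control females (background 16.9% and 13.8%), 13 and 10 of 95 in labelled knockout females (8.44% and 6.01%), 17 and 22 of 93 in control males (13% and 9.31%), and 29 and 27 of 93 in labelled knockout males (21.6% and 20%). Called higher in all 4 were 7 of 93 (background 4.14%): Slc44a1, a choline transporter, Mboat1, a lysophospholipid acyltransferase, Pld1, Pld3, Pla2g7 and Gdpd1 of the phospholipase list, and the flippase Atp10a. Called lower in all 4 were also 7 of 93 (background 1.95%): Lpin1, Mat1a, Sardh, Ptdss1, Pla1a, Lcat and Stard7; both sets were counted after their values were seen. In the order control females, labelled knockout females, control males and labelled knockout males, the log2 changes of Mboat1 were +2.17, +2.18, +1.55 and +2.14, from 0.488 CPM on HF in control females. In the same order those of Atp10a were +2.16, +1.84, +1.82 and +2.05. Among the falls, Mat1a, which makes the methyl donor that PEMT uses, changed by -0.77, -0.60, -0.60 and -0.70, and Lpin1, which makes the diacylglycerol of the Kennedy pathway, by -0.84, -0.95, -1.22 and -0.99. Pla2g7, the platelet-activating factor acetylhydrolase secreted by macrophages, changed by +1.40, +1.53, +0.91 and +1.21. Both directions occurred in the Kennedy list, where choline transporters of the Slc44a family rose and Lpin1 fell.

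The choline transporter-like gene Slc44a4 rose on HFCF against HF in labelled knockout females, 0.565 ± 0.228 CPM against 1.80 ± 0.288 CPM (SD, n = 4 each, log2 change +1.70, SE 0.34, adjusted p = 0.0117). For HF against LF, 1 of 93 list genes was called in control females (background 0.696%), Chpt1, which rose on HF, 120.3 ± 12.7 CPM against 206 ± 28.6 CPM (SD, n = 4 each, log2 change +0.79, SE 0.12, adjusted p = 0.0264). For the labelled knockouts edgeR called 0 of 94 (background 0.155%), where 13 had an unadjusted p under 0.05. On HFCF against LF, 27 list genes rose and 18 fell of 97 in control females, where 35.2% of all genes were called in either direction. Mboat1 rose there, 0.553 ± 0.305 CPM against 2.24 ± 0.6252 CPM (SD, n = 4 each, log2 change +1.98, SE 0.40, adjusted p = 0.00472), and Gnmt, a methyltransferase that uses the same methyl donor as PEMT, fell, 1900.1 ± 690.0 CPM against 667 ± 276 CPM (SD, n = 4 each, log2 change -1.52, SE 0.32, adjusted p = 0.00563). Among labelled knockout females 12 rose and 11 fell of 95 (either direction over all genes 12%). Gdpd1, a glycerophosphodiesterase, rose, 0.720 ± 0.222 CPM against 2.53 ± 0.901 CPM (SD, n = 4 each, log2 change +1.85, SE 0.37, adjusted p = 0.0103), as did the cytosolic phospholipase A2 gene Pla2g4a, 1.59 ± 0.711 CPM against 4.36 ± 0.725 CPM (SD, n = 4 each, log2 change +1.495, SE 0.32, adjusted p = 0.0139).

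For the 4 members whose group means spanned at least 1 log2 unit, the genes most like them were found among 12293 by the root mean square difference of centred group means over the 10 groups, in log2 units. Nearest to Lpcat1 were Rasgrp1 (0.0350), Msn (0.0540) and Cnn2 (0.0760). For Lpcat2 they were Parvg (0.0800), Mfge8 (0.0900) and Ifit2 (0.0950). Chka lay nearest to Dtx4 (0.148), Vstm4 (0.162) and Asap2 (0.172), and Enpp2 to Cyp8b1 (0.215), Pdxk (0.260) and Adora1 (0.261). Lpcat1 and Lpcat2 differed from each other by 0.262, and Enpp2 from its nearest member, Pcyt1a, by 0.364. Lpcat1 lay nearer to Rasgrp1 and Msn than to any other member. The best match among 12293 genes is likely to be nearer than the best among the few members. This order was therefore favoured by the search and says nothing about the members. The 10 group means share libraries and depth, and no test was made.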

How the data were processed

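Whole-liver RNA from 48 mice was read from 11 comparison tables. The authors deposited raw read counts per gene and library, counts divided by a size factor (a normalised signal) and FPKM, per the file headers. Per the submitters' processing notes the tools were STAR 2.6.1, HTSeq 0.6.1 and DESeq2 and the build GRCm38 (mm10); per the labels' protocols libraries were not strand specific. The tables were joined by gene identifier (29221 genes), and 0 of 1341082 counts repeated between tables differed. Of 29181 identifiers shared with GENCODE M21, 97.4% had the same coordinates. No column of per-sample values was without a sample.

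Groups were taken from the labels. Each of 13 comparisons was fitted on its own groups with edgeR 4.0.16 (R 4.3.3; TMM scaling, filterByExpr, quasi-likelihood F test, Benjamini-Hochberg adjustment over all genes tested, threshold 0.05), and 4 interactions on their 4 groups. SE is that of the log2 change. CPM used TMM library sizes over all 48 libraries; log2 values in the likeness measure had a prior count of 2. Deposited counts and FPKM were used as given; the deposited signal was used only to check that it is the count divided by 1 factor per library. Alternatives were DESeq2 1.42.0 size factors, the DESeq2 Wald test, no filter, all 10 groups in one fit, a replicate block, and leaving out each mouse. The edgeR step was tested on simulated data: for HF males 83.9% of genes changed by 1 log2 unit were recovered over 13873 genes, and for HF females 63.3% over 13900. Changes below 1 log2 unit, such as those of Pla2g6 in the labelled knockout comparisons, were not simulated, so these shares do not apply to them.

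All members are named; other pathway genes are named when among the 2 called genes per comparison with the largest log2 change, a mean of at least 1 CPM and no overlap of groups, or as stated in the text. Lists with markers were of hepatocytes, macrophages, stellate cells, endothelium, cholangiocytes, adipocytes, T and B cells and neutrophils. The members and lists were chosen with earlier results of these data known. At a depth of 15338239 to 22072884 counts Chkb is imprecise, and the part of exon overlap in its low count was not tested.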

Additional observations from a re-analysis of the deposited data

Results flagged for a closer look

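Each member was checked in each of the 10 groups for a mouse far from the rest, 100 checks in all, of which chance flags about 1 in 20. All mice flagged are given here, and those flagged by chance cannot be told apart from the rest. In the HFCF labelled knockout females replicate 1 had 399 CPM of Pemt, where the other 3 had 247 to 272, and 769 CPM of Pcyt2, where the others had 513 to 540.0. This library also had the highest hepatocyte marker sum of its group. In the HFCF control males replicate 1 had 656 CPM of Pcyt2 (others 441 to 517) and 204 CPM of Lpcat3 (others 147 to 163.5). Replicate 5 of the HFCF control females had 107 CPM of Chka against 42.3 to 51.5 in the others. In LF labelled knockout females replicate 4 had 45.2 CPM of Pcyt1a, below the 76.0 to 79.8 of the others, and replicate 2 had 6.15 CPM of Lpcat1, above the 4.28 to 4.50 of the others. Replicate 3 of the HF labelled knockout females had 7.01 CPM of Lpcat2 against 3.22 to 3.66. The difference in the knockout effect on Pcyt1a between HFCF and HF in males, 0.44 log2 units, passed the interaction test (adjusted p = 0.0106).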

How the results depend on the processing

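With all 10 groups in one fit, the members called were 2 of 10 in the labelled knockout comparison of HF males, 1 in that of HF females, 1 in that of HFCF females, 2 for HF against LF in labelled knockout females, 6 for HFCF against LF in labelled knockout females, and 0 for the interaction of knockout and diet in males. The Wald test called 1 in the knockout comparison of HFCF females and 1 for HF against LF in labelled knockout females, and so did the fit with no filter in the latter. The cause was not tested. With a mouse left out, member counts ranged over 4 to 5 (knockout, HF males), 1 to 2 (HFCF males), 0 to 0 (each female diet), 1 to 3 (HF against LF, controls), 0 to 0 (labelled knockouts), 5 to 7, 2 to 6, 5 to 7 and 7 to 8 (HFCF against HF in control females, labelled knockout females, control males and labelled knockout males), 6 to 9 and 2 to 5 (HFCF against LF, controls and labelled knockouts), and 1 to 2, 0 to 0, 0 to 0 and 0 to 1 (the interactions of knockout and diet, knockout and sex on HF, knockout and sex on HFCF, and diet and sex). No member changed sign where it was called.

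Over all genes, calls moved by more than 1.5 times in several comparisons. Knockout in HF males went from 2591 to 1697 (one fit), in HFCF males from 324 to 712 (Wald), 195 (one fit), 165 (block), 1052 (without control replicate 1) and 185 (without labelled knockout replicate 5, the lowest). For the females, LF went from 0 to 8 (Wald) and 2 (one fit), HF from 0 to 64, 1 (no filter) and 19, and HFCF from 8 to 81, 26, 82 and 0 (block), and to between 0 (without labelled knockout replicate 2) and 19 (without its replicate 1) with a mouse left out. HF against LF went from 99 to 648, 185 and 910 in controls and from 22 to 501, 124, 514 and 9 (block) in labelled knockouts. In labelled knockout females HFCF against HF went from 2118 to 4199 (one fit) and 1180 (block), and HFCF against LF from 1754 to 4178 (one fit). The interaction of knockout and diet went from 235 to 591 (Wald), 12 (one fit), 71 (block), 119 (without HF control replicate 3) and 412 (without HF control replicate 2); those with sex went from 0 to 46 and 6 and from 1 to 125 (Wald), or to 287 (sex on HF) and 1699 (diet and sex) without replicate 1 of the HF control females. Without replicate 1 of the HFCF labelled knockout females, HFCF against HF and against LF gave 4402 and 3587, and without its replicates 4 and 2 in turn 866 and 681. HFCF against HF gave 5429 (3225 with it) in control males without HFCF replicate 1, and 2454 in control females without HFCF replicate 2. HF against LF gave 10 without LF control replicate 4 in controls, and in labelled knockouts 124 without LF replicate 1 and 0 without LF replicate 2 or 4 or HF replicate 1.

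Replicate numbers pair nothing the labels state, and same-numbered mice correlated from -0.293 to 0.435. With the replicate block, 0 members were called for HFCF against HF in control females (4526 genes became 0) and 4 for HFCF against LF (5199 became 2036). The block kept only replicate numbers present in both groups, 3 pairs in each of these comparisons and in the knockout comparison of HFCF females. There a mouse was left out of each group, and the effect of this was not told apart from that of the block. Over single members the block kept 153 of 170 calls or non-calls. Among those lost were Pemt in the knockout comparison of HF males (adjusted p = 0.0884) and Lpcat3 for HFCF against HF in labelled knockout males (0.0807).

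Low counts leave Chkb, and to a lesser degree Lpcat1 and Lpcat2, imprecise, and Chkb also shares exonic bases with other genes.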
